A study of Mus musculus with 9 samples.

Results

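The cytokines by which osteoblast lineage cells act on osteoclasts and blood cells were examined in mouse preosteoblast MC3T3-E1 cells exposed to low-intensity pulsed ultrasound (LIPUS). The members were 8 genes: *Tnfsf11*, *Tnfrsf11b*, *Csf1*, *Il6*, *Il11*, *Lif*, *Kitl* and *Il33*. They were taken by name from the annotation of the array, and every probe set with a member as its only symbol was used, which gave 17 of 45037 probe sets, or 8 of 18193 named genes. MC3T3-E1 is an established line that grew from the calvaria of newborn C57BL/6 mice and is used as a model of the preosteoblast. Cells of every group had been kept for 14 days in MEMα with serum, ascorbic acid and β-glycerophosphate, replated, and cultured for a further 24 h. Cells of the LIPUS 24 h and LIPUS 6 h groups were then sonicated once through the bottom of the dish for 20 min at 30 mW/cm2 and 1.5 MHz, and RNA was taken 24 h or 6 h later, whereas control cells were mock treated. Each group had 3 arrays with a replicate number in the label. The labels do not name it as the experiment, but it was taken as such here. How long control cells were kept before RNA was taken is not given in the sources used here, so LIPUS and time in culture cannot be told apart.

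Bone is remodelled by osteoclasts that dissolve it and osteoblasts that rebuild it, and the osteoblast lineage controls the formation of osteoclasts. It does so with RANKL, the protein of *Tnfsf11*, which binds RANK on osteoclast precursors and drives their maturation. Osteoprotegerin, the protein of *Tnfrsf11b*, is a soluble decoy that captures RANKL, and the colony-stimulating factor of *Csf1* keeps the precursors alive. *Il6*, *Il11* and *Lif* encode cytokines that signal through the shared receptor chain gp130 and the JAK-STAT pathway. Kit ligand, also called stem cell factor and encoded by *Kitl*, acts on the receptor KIT of mast cells, melanocytes and hematopoietic stem cells. IL-33 is an alarmin of the interleukin-1 family that is held in the nucleus.

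The stretch around the start of transcription is shown for 3 members: for *Kitl* because it changed, for *Csf1* because its probe sets moved in different directions, and for *Tnfsf11* because it encodes the central ligand of this axis. The sequences are those of RefSeq on the mouse build GRCm38.p6, each with 250 bases before the start and 50 bases after it, written 5′ to 3′ on the strand of the gene. Capitals mark letters that match a motif for NF-kappaB or a TATA box on either strand. The *Kitl* window lies at chr10:100015571-100015870 on the plus strand, the *Csf1* window at chr3:107760420-107760719 on the minus strand and the *Tnfsf11* window at chr14:78307994-78308293 on the minus strand.
Kitl: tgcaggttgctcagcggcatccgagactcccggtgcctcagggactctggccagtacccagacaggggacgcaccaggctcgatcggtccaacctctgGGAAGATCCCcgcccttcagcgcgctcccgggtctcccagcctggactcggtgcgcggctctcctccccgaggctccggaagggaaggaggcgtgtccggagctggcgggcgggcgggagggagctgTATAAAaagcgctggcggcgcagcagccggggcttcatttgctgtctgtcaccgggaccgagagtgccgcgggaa
Csf1: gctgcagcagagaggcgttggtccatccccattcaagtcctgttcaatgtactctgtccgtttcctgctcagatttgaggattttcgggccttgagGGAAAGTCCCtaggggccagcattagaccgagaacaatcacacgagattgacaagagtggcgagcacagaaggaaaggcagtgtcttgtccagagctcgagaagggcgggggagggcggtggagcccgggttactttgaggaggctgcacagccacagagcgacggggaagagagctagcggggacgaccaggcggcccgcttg
Tnfsf11: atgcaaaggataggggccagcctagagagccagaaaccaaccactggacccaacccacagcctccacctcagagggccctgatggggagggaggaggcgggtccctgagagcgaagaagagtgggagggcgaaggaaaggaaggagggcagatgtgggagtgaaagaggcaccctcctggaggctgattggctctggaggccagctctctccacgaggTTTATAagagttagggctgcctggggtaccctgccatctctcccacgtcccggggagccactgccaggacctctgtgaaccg

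In the *Kitl* window the letters TATAAA stood at bases -25 to -20 and an NF-kappaB match, GGAAGATCCC, at -152 to -143, counted from the start. The *Csf1* window held an NF-kappaB match, GGAAAGTCCC, at nearly the same distance, -154 to -145, and no TATAAA. The *Tnfsf11* window held the TATA letters on the opposite strand at -32 to -27 and no NF-kappaB match. Over all 32851 windows in the table, 8.46% held an NF-kappaB match and 13.6% held TATAAA. None of these 3 windows held an AP-1 site (TGANTCA, in 7.81% of all windows), a STAT site (TTCNNNGAA, 8.30%), a cAMP response element (TGACGTCA, 1.79%) or its inner letters TGACG (20.8%), where the CRE always contains the shorter motif. The *Kitl* and *Tnfsf11* windows each held 1 E-box (CANNTG), left in lower case here because 72.3% of all windows hold one. Of the members not printed, *Il6* held both an AP-1 match at -249 to -243 and an NF-kappaB match at -44 to -35, as did *Lif* at -228 to -222 and -178 to -169. Of the 8 members, 7 had at least 1 window, and no window of *Tnfrsf11b* was used. These matches describe letters and were not tested as binding sites.

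After 24 h, *Kitl* was the only member with a called change. Its signal at the brightest probe set was 0.751 times that of control cells, and 3 of its 4 probe sets passed the test, all of them lower in LIPUS-treated cells. No probe set of the other 7 members passed at 24 h, and no member passed at 6 h. Values are signals on the log2 scale, obtained by robust multi-array averaging (RMA), and a probe set was called changed at an adjusted p under 0.05 by limma, with the experiment as a block and Benjamini-Hochberg adjustment over all 45037 probe sets. By this measure 3 of the 17 member probe sets were called at 24 h, against 2.73% of all probe sets. Calls of lower signal made up 0.933% of all probe sets and 3 of the 17. Because the 3 calls come from 1 gene, they count as 1 of 8 genes. The share called among the 18193 named genes was not computed, and the shares above are of probe sets. The count of genes thus has no background here. *Kitl* is also among the genes that the study selected on these same arrays, so its call is not independent evidence. Less transcript per cell and fewer cells that carry it cannot be told apart in these bulk samples.

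*Kitl* at the brightest probe set, 1415855_at, gave log2 signals of 9.90, 10.28 and 10.00 in control cells, 9.94, 10.29 and 10.02 at 6 h and 9.46, 9.85 and 9.62 at 24 h, in the order of experiments 1 to 3. All 3 arrays at 24 h lay below all 3 control arrays and below all 3 arrays at 6 h. The log2 change from each control array was -0.44, -0.42 and -0.38, so the experiments differed from each other far less in the change than in the level. Fitted over all arrays the log2 fold change was -0.41 ± 0.026 (SE, n = 3 arrays per group, limma adjusted p = 0.000908), a fold of 0.751 with a 95% interval of 0.719 to 0.783.

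The same fall was seen at a further pair of *Kitl* probe sets, whose levels varied more between experiments. Probe set 1426152_a_at gave 7.41, 7.74 and 6.39 in control cells, 7.37, 7.75 and 6.41 at 6 h, and 6.88, 7.10 and 6.17 at 24 h. Here the groups overlapped, because experiment 3 was low in every group. Within the experiments the 24 h array was lower by 0.53, 0.64 and 0.22, and the log2 fold change was -0.46 ± 0.084 (SE, n = 3 per group, limma adjusted p = 0.0385).

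Probe set 1448117_at gave 7.30, 7.58 and 6.80 in control cells, 7.56, 7.72 and 6.80 at 6 h, and 6.91, 7.22 and 6.47 at 24 h. The changes from control to 24 h were again alike in the experiments, at -0.39, -0.36 and -0.33, and the log2 fold change was -0.36 ± 0.062 (SE, n = 3 per group, limma adjusted p = 0.0320). The remaining *Kitl* probe set, 1415854_at, was not called, at -0.12 ± 0.065 (SE, limma adjusted p = 0.543). Its signal in experiment 3 was 4.12 on every array, so only experiments 1 and 2 gave a change, of -0.19 and -0.16. Of the 4 probe sets, 1426152_a_at derives from a sequence record of its own and the other 3 share 1, so they are repeated readings of 1 gene and not independent replicates.

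**Figure D1:**
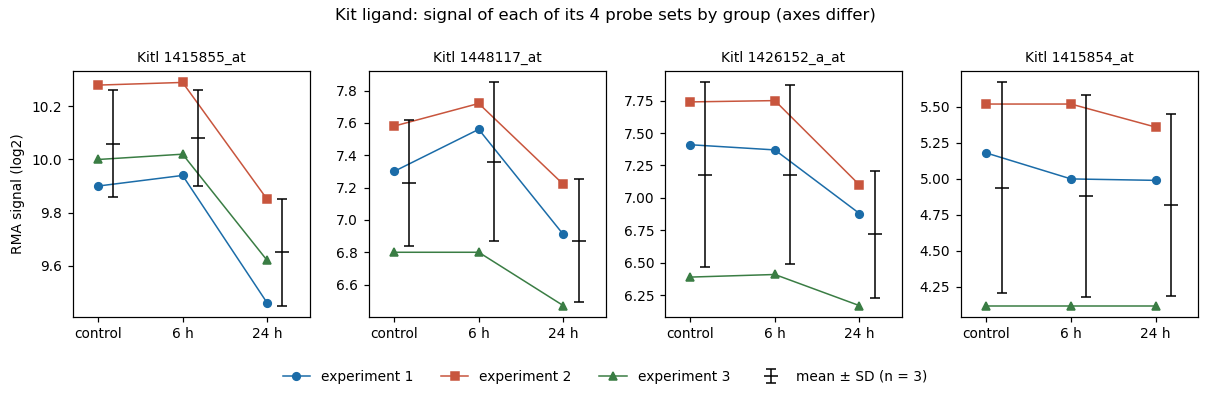
RMA signal (log2, a different axis in each panel) of the 4 Kitl probe sets in control cells and at 6 h and 24 h after LIPUS, with 1 line per experiment and the mean ± SD of 3 arrays beside the points. At 1415855_at, 1448117_at and 1426152_a_at every line is lower at 24 h than in control and at 6 h, while at 1415854_at experiment 3 stays at 4.12.

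The fall of *Kitl* came between 6 h and 24 h. At 6 h the log2 fold changes against control were 0.02, 0.00, 0.13 and -0.06 at 1415855_at, 1426152_a_at, 1448117_at and 1415854_at, and the adjusted p was at least 0.959 for each. Set directly against the arrays at 6 h, the arrays at 24 h were lower by 0.44 ± 0.026 at 1415855_at (SE, n = 3 per group, limma adjusted p = 0.000875), by 0.46 ± 0.084 at 1426152_a_at (adjusted p = 0.0482) and by 0.50 ± 0.062 at 1448117_at (adjusted p = 0.0121). Both comparisons use the same 3 arrays at 24 h. In the comparison of 24 h with 6 h, 3 of 17 member probe sets were called, all of *Kitl* and all lower, against 2.02% of all probe sets called and 0.879% called lower.

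The block for the experiment carried the *Kitl* call, since without it limma gave adjusted p = 1.00 at each of the 3 probe sets at the same fold change. Without experiment 1 the fold change at 1415855_at was -0.40 with adjusted p = 0.147, and without experiment 2 it was -0.41 with adjusted p = 0.0741, in fits on 6 arrays. Without experiment 3 it was -0.43 with adjusted p = 0.00181.

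Genes whose pattern was most like that of *Kitl* were sought by the Pearson correlation of the signals at 1415855_at, after the mean of each experiment was taken out, over the 9 arrays and 9997 genes with a probe set among the 40% of highest mean. The 3 highest were *Plk4*, a kinase of centriole duplication, *Me1*, a malic enzyme, and *Col2a1*, the collagen of cartilage, each with r = 0.996. Their log2 fold changes at 24 h were -0.13 ± 0.021, -0.11 ± 0.022 and -0.82 ± 0.028 (SE, n = 3 per group). The arrays share these experiments and groups, so the correlation is a description only.

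Kit ligand is also known as a factor of the bone marrow niche, and 12 of 15 other niche factors of stromal cells were measured. Of these, 1 rose at 24 h and none fell at the brightest probe set of each gene, and 2 rose if any probe set was counted. Over all probe sets 2.73% were called at 24 h, and 809 of 45037 were called higher. These shares include dim probe sets, whereas 9 of the 12 genes were among the 40% of highest mean. In the fit on that 40% alone, 1914 of 18015 probe sets were called. The median log2 fold change was 0.06 over the list and 0.00 over all genes, and the list ran from -0.13 to 0.47. By limma 6 of the 12 had an unadjusted p under 0.05, against 12.6% of all probe sets. The one that rose at its brightest probe set was *Igf1*, insulin-like growth factor 1, at 0.47 ± 0.032 (SE, n = 3 per group, limma adjusted p = 0.00118), with 0.43, 0.47 and 0.49 in the experiments. *Cxcl12*, the chemokine that retains hematopoietic stem cells, gave -0.03 ± 0.021 (adjusted p = 0.629). *Vcam1*, an adhesion molecule of the same stroma, gave -0.01 ± 0.022 (adjusted p = 0.915).

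The ligand *Tnfsf11* gave no call, and both of its probe sets were dim, here meaning outside the 40% of the array with the highest mean signal. At 1451944_a_at its log2 signals were 3.16, 3.86 and 3.66 in control cells, 3.28, 3.86 and 3.66 at 6 h, and 3.65, 3.86 and 3.66 at 24 h. Only experiment 1 showed a difference, of 0.50 at 24 h, and in experiments 2 and 3 the 3 arrays held the identical value. The log2 fold change at 24 h was 0.17 ± 0.104 (SE, n = 3 per group, limma adjusted p = 0.596), with a 95% interval of -0.08 to 0.41. At its other probe set, 1419083_at, it was 0.03 ± 0.077 (adjusted p = 0.908).

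The decoy *Tnfrsf11b* was bright and moved in different directions in the experiments. Its signals at 1449033_at were 9.04, 9.29 and 8.19 in control cells, 9.17, 9.19 and 8.50 at 6 h, and 8.44, 9.16 and 8.54 at 24 h. At 24 h it was lower by 0.60 and 0.14 in experiments 1 and 2 and higher by 0.34 in experiment 3, and the groups overlapped. The log2 fold change was -0.13 ± 0.170 (SE, n = 3 per group, limma adjusted p = 0.781), and the 95% interval of -0.53 to 0.27 was the widest among the 17 member probe sets. The dim probe set 1418309_at differed from control only in experiment 1, by -0.04, with a fitted change of -0.01 ± 0.050 (adjusted p = 0.923).

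The balance of RANKL and osteoprotegerin sets the drive toward osteoclast formation, so the difference between the log2 changes of *Tnfsf11* and *Tnfrsf11b* was also taken in each experiment. With 1451944_a_at and 1449033_at it was 1.10, 0.14 and -0.34 at 24 h, a mean of 0.30 ± 0.73 (SD, n = 3 experiments). At 6 h it was 0.00, 0.10 and -0.31, a mean of -0.07 ± 0.21 (SD, n = 3 experiments). In experiments 2 and 3 the signal of *Tnfsf11* at this probe set was identical on all arrays, so the values there are the change of *Tnfrsf11b* alone with its sign turned, and only experiment 1 holds a change of both genes.

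*Csf1* was read by 4 bright probe sets that moved in different directions, and none was called. Signals at the brightest, 1460220_a_at, were 10.14, 10.30 and 10.14 in control cells, 10.02, 10.30 and 10.06 at 6 h, and 10.23, 10.32 and 10.09 at 24 h. These groups overlapped, and the log2 fold change at 24 h was 0.02 ± 0.041 (SE, n = 3 per group, limma adjusted p = 0.878), with a 95% interval of -0.08 to 0.12. The probe set 1448914_a_at from the same sequence record was higher at 24 h in each experiment, by 0.08, 0.07 and 0.07, at a fitted change of 0.07 ± 0.046 (adjusted p = 0.592).

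The other *Csf1* record gave lower signals at 24 h. At 1425154_a_at the values were 7.21, 7.24 and 7.35 in control cells, 7.09, 7.17 and 7.24 at 6 h, and 6.88, 7.17 and 7.05 at 24 h. All 3 arrays at 24 h lay below all control arrays, the closest being 7.17 at 24 h and 7.21 in control cells. Within experiment 2 the 24 h array was lower than its control by only 0.07. The log2 fold change was -0.24 ± 0.058 (SE, n = 3 per group) and limma gave adjusted p = 0.107, which did not pass. At 1425155_x_at it was -0.20 ± 0.069 (adjusted p = 0.281) and lower in each experiment, by 0.41, 0.12 and 0.06. The call of 1425154_a_at depended on which probe sets were tested, since over the 40% of highest mean its adjusted p was 0.0472.

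Among the gp130 cytokines no member was called. *Il6*, read by 1 probe set, gave 4.33, 3.78 and 3.84 in control cells, 4.61, 3.78 and 3.84 at 6 h, and 4.27, 3.78 and 3.86 at 24 h. Its change at 24 h was -0.01 ± 0.083 (SE, n = 3 per group, limma adjusted p = 0.956), with a 95% interval of -0.21 to 0.18. *Il11*, which like *Il6* can raise RANKL in osteoblasts, gave 4.87, 4.98 and 5.25 in control cells, 4.76, 5.00 and 5.25 at 6 h, and 4.73, 4.98 and 5.25 at 24 h. Only experiment 1 differed at 24 h, by -0.14, and the fitted change was -0.05 ± 0.055 (adjusted p = 0.762).

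*Lif*, a gp130 cytokine that signals through the receptor of *Lifr*, gave 5.97, 6.34 and 5.75 in control cells, 5.97, 6.34 and 5.75 at 6 h, and 6.02, 6.34 and 5.71 at 24 h at 1421207_at. The arrays at 6 h thus repeated the control values, and the change at 24 h was 0.00 ± 0.044 (SE, n = 3 per group, limma adjusted p = 0.982), with a 95% interval of -0.10 to 0.11. The other probe set, 1450160_at, gave 0.09 ± 0.086 (adjusted p = 0.713). The alarmin gene *Il33* gave 2.38, 2.38 and 2.69 in control cells, 2.44, 2.38 and 2.46 at 6 h, and 2.49, 2.38 and 2.54 at 24 h. Its change at 24 h was -0.02 ± 0.067 (adjusted p = 0.932), and its mean of 2.46 over the 9 arrays was below 5.84, the level above which the brightest 40% of all probe sets lay.

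**Figure D2:**
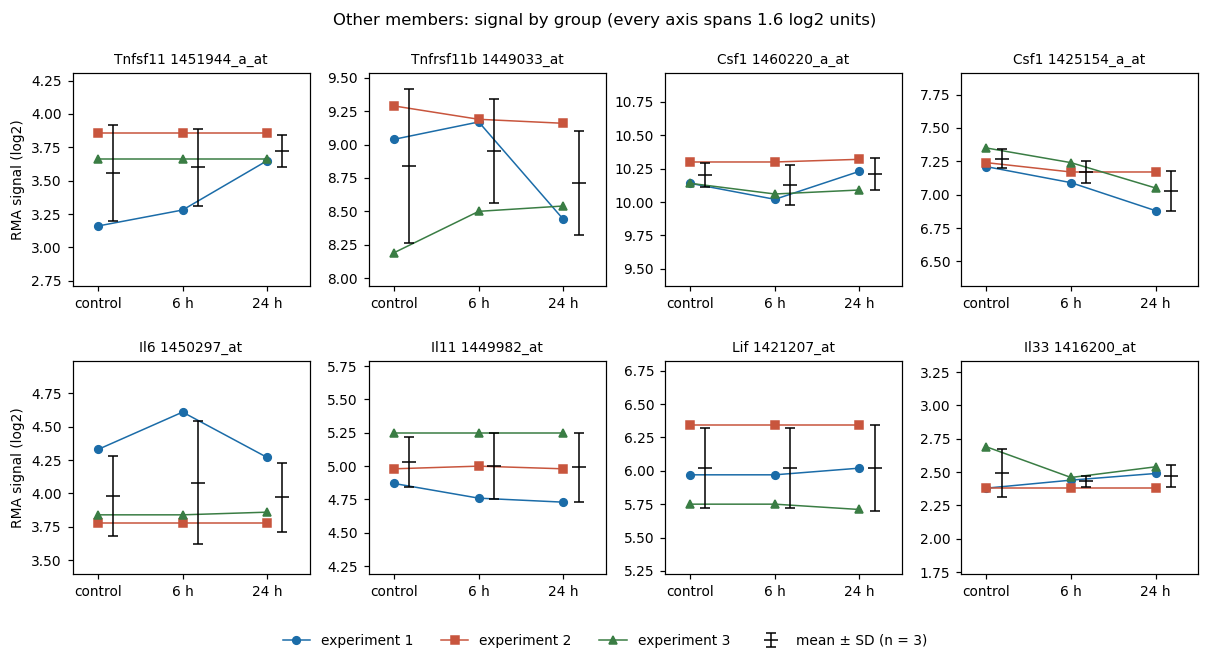
RMA signal (log2) of the other 7 members in control cells and at 6 h and 24 h after LIPUS, at the brightest probe set of each gene and at a second Csf1 probe set, with 1 line per experiment and the mean ± SD of 3 arrays. Every axis spans the same range; the lines of Tnfrsf11b cross, those of Csf1 1425154_a_at run down, and several lines of experiments 2 and 3 are flat.

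Several dim members held exactly equal values on the arrays of an experiment. The signal was identical on all 3 arrays for 6 of the 17 member probe sets in experiment 2, for 4 in experiment 3 and for 0 in experiment 1. Over all probe sets this was so for 36.3%, 28.1% and 0.224% in experiments 2, 3 and 1. Of the 8 member probe sets outside the 40% of highest mean, which belong to 7 genes, 7 were tied in this way in experiment 2 or 3, and 4 had equal values at 24 h and in control in both. Of the 9 brighter ones, of *Kitl*, *Csf1*, *Tnfrsf11b* and *Lif*, 1 was tied. What made these ties was not tested. With the probe sets left out that held equal values at 24 h and in control in any experiment, an alternative chosen after the data were seen, 16676 probe sets stayed, 9 of them of members. In that fit 4 of the 9 were called, the 3 of *Kitl* and *Csf1* 1425154_a_at with limma adjusted p = 0.0455.

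Taking all members, the 6 h comparison gave 0 of 17 calls by limma, against 0% of all probe sets, and the lowest unadjusted p among the members was 0.0588, for *Csf1* 1448914_a_at at -0.10. None of the 17 reached an unadjusted p under 0.05 at 6 h by limma or by the methods' t-test, whereas 3.5% of all probe sets did by limma and 53 of 45037 by the methods' t-test. At 24 h limma gave an unadjusted p under 0.05 at 5 of the 17, the 3 called *Kitl* probe sets and 2 of *Csf1*, against 12.6% of all probe sets. By direction, 5 of 17 member probe sets, of *Kitl* and *Csf1*, were lower at 24 h in all 3 experiments, against 6.84% of all probe sets. A further 1, of *Csf1*, was higher in all 3, against 10.3%. For 2 of 17, *Kitl* 1415855_at and *Csf1* 1425154_a_at, all arrays at 24 h lay below all control arrays, against 0.568% of all probe sets. A probe set with equal values at 24 h and in control in any experiment could meet none of these counts. Only 16676 of 45037 probe sets and 9 of the 17 had no such tie. The shares over all probe sets are thus lowered by ties and are not a matched background for the bright members. A ratio of at least 1.5 in the deposited signals of each of 3 experiments was met by 0 of 17 member probe sets and by 0.131% of all probe sets, and *Kitl* 1426152_a_at passed that ratio in 1 experiment. The study lists this *Kitl* probe set as lowered by that rule in all 3 experiments. Its ratios in the deposited signals were 0.693, 0.64 and 0.861, so the selection was not recovered from them. Why the values differ was not tested.

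**Figure D3:**
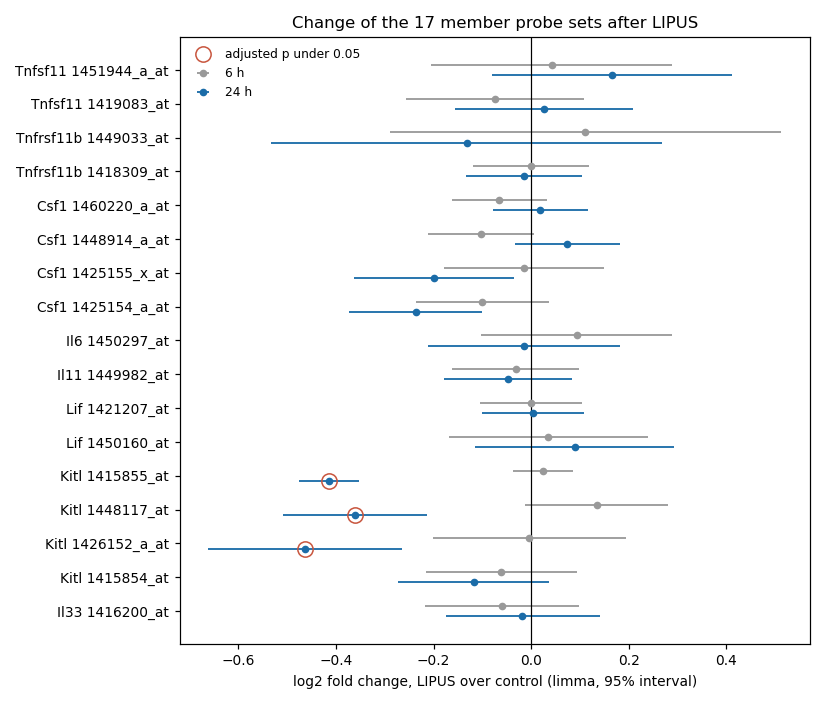
Log2 fold change of the 17 member probe sets at 6 h (grey) and 24 h (blue) after LIPUS over control, from limma, where bars are 95% intervals. The circled points are the 3 Kitl probe sets with an adjusted p under 0.05 at 24 h, and the interval of Tnfrsf11b 1449033_at is the widest.

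Of the receptors of these cytokines, 8 of 10 listed were measured and none was called by limma at 24 h, with 1 at an unadjusted p under 0.05 and a median log2 fold change of -0.01. Over all probe sets 2.73% were called at 24 h and 12.6% had an unadjusted p under 0.05 by limma. These shares include dim probe sets, whereas each list was read at the brightest probe set of each gene. The shared chain *Il6st* (gp130) gave 0.09 ± 0.028 (SE, n = 3 per group, limma adjusted p = 0.203) and *Lifr* gave 0.00 ± 0.062 (adjusted p = 0.998). *Lgr4*, a further receptor of RANKL, gave -0.10 ± 0.043 (adjusted p = 0.425). The receptors of RANKL and Kit ligand, *Tnfrsf11a* and *Kit*, were outside the brighter 40%, with means of 4.69 and 3.53 at 24 h and 4.82 and 3.47 in control cells. Of 7 other gp130 ligands, 4 were measured and none was called, with 1 at an unadjusted p under 0.05. The largest of these values was -0.30 ± 0.122 for *Clcf1*, cardiotrophin-like cytokine factor 1 (adjusted p = 0.372).

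In the gp130 and JAK-STAT chain, 1 of 17 measured genes rose at 24 h and 1 fell, against 2.73% of all probe sets called, with a list median of 0.00. By limma 4 of the 17 had an unadjusted p under 0.05, against 12.6% of all probe sets. Of the 17, 15 were in the brighter 40%, so these shares are not a matched background for the list. In the fit on the brighter 40% alone, 1914 of 18015 probe sets were called. *Socs2*, a feedback inhibitor of cytokine signals, rose by 0.18 ± 0.027 (SE, n = 3 per group, limma adjusted p = 0.0203), with 0.21, 0.18 and 0.14 in the experiments. *Osmr*, the oncostatin M receptor that pairs with gp130, fell by 0.23 ± 0.041 (adjusted p = 0.0374), with -0.31, -0.14 and -0.23. *Socs3*, the inhibitor that gp130 cytokines induce most directly, gave -0.23 ± 0.068 and was not called (adjusted p = 0.197).

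Of 16 measured genes of the NF-kappaB chain none was called, with a median of 0.04. By limma 4 had an unadjusted p under 0.05, against 12.6% of all probe sets, but 15 of the 16 were in the brighter 40%. The feedback inhibitor *Tnfaip3* gave 0.22 ± 0.050 (SE, n = 3 per group, limma adjusted p = 0.0883) and *Nfkbiz* gave -0.20 ± 0.070 (adjusted p = 0.278). Of 13 measured regulators of *Tnfsf11* transcription, all 13 in the brighter 40%, none was called. Of these, 2 had an unadjusted p under 0.05, and the median was 0.06. The largest values were 0.14 ± 0.047 for *Esr1*, the estrogen receptor (adjusted p = 0.273), and 0.14 ± 0.071 for *Nr3c1*, the glucocorticoid receptor (adjusted p = 0.506).

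Of 26 measured further factors by which osteoblasts and osteoclasts act on each other, 1 rose at 24 h and none fell, with a median of -0.03. Over all probe sets 2.73% were called. By limma 7 of the 26 had an unadjusted p under 0.05, against 12.6% of all probe sets. The one that rose was *Efnb2*, the membrane ligand ephrin-B2, at 0.36 ± 0.061 (SE, n = 3 per group, limma adjusted p = 0.0293), with 0.39, 0.19 and 0.51 in the experiments. Its receptor *Ephb4* gave 0.03 ± 0.060 (adjusted p = 0.864). Of 14 measured interleukin-1 family genes, the relatives of *Il33*, none was called, with 2 at an unadjusted p under 0.05 and a median of 0.00. *Il18* gave 0.25 ± 0.051 (adjusted p = 0.0552) and *Il1rn*, the receptor antagonist, gave -0.49 ± 0.116 (adjusted p = 0.0954). At 6 h no gene of any of these lists was called, as no probe set of the array was.

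**Figure D4:**
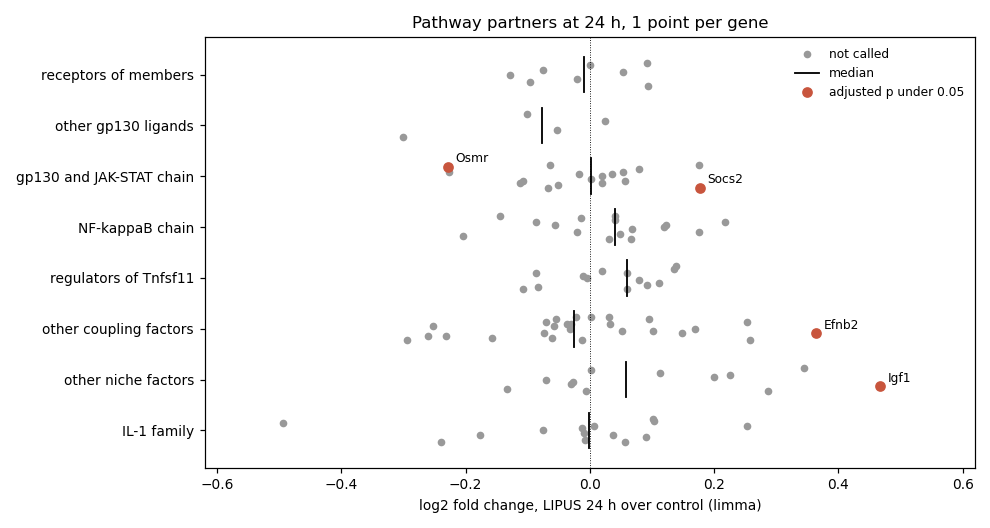
Log2 fold change at 24 h over control (limma) of the measured genes of 8 lists of receptors, ligands and signal chains, with 1 point per gene at its brightest probe set and a bar at the list median. The red points, named in the plot, are Osmr, Socs2, Efnb2 and Igf1, the genes with an adjusted p under 0.05.

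The labelled cell type was checked against its markers. Of 13 listed preosteoblast markers 10 were measured, and *Runx2*, *Bglap* and *Spp1* were missing from the check. Of these 10, 8 were in the brighter 40% of the array, including *Col1a1*, *Col1a2*, *Sparc*, *Sp7* and *Dlx5*, while *Alpl* and *Ibsp* were not. None of the 10 was called at 24 h by limma, with 3 at an unadjusted p under 0.05, against 12.6% of all probe sets. Markers of mast cells, lymphocytes and endothelial cells had 0 of 7, 0 of 7 and 0 of 6 genes in that range, and none was called or had an unadjusted p under 0.05 at 24 h. Over all probe sets, 809 of 45037 were called higher at 24 h. Of 16 osteoclast and macrophage markers, 3 rose at 24 h: *Ctsk* by 0.40 ± 0.031 (SE, n = 3 per group, limma adjusted p = 0.00170), *Mmp9* by 0.47 ± 0.047 (adjusted p = 0.00457) and *Lyz2* by 0.49 ± 0.059 (adjusted p = 0.00877). *Cd14* gave -0.18 ± 0.044 (adjusted p = 0.101) and was lower in 3 of 3 experiments, and the median over the list was 0.00, as over all genes. Those 3 and *Cd14* were the ones in the brighter 40%. The other 12 were outside it, with mean log2 signals that reached from 2.48 for *Calcr* to 5.93 for *Csf1r* at 24 h and from 2.45 to 5.84 for the same genes in control cells. *Csf1r* thus lay next to the limit of 5.84, and *Ptprc*, the marker of all leukocytes, averaged 2.84 at 24 h and 2.86 in control cells. The mean log2 signal of the 16 markers was 4.63 to 4.95 at 24 h and 4.50 to 4.86 in control cells, and its part in the result for *Kitl* was not tested.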

How the data were processed

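RNA of 9 MC3T3-E1 cultures was hybridized to Affymetrix whole-genome mouse arrays. The authors deposited log2 signals made with RMA, whose version and settings are not given in the sources used here. Of 45101 probe sets, 64 controls were left out. The annotation gave 1 symbol for 34945, several for 932 and none for 9160. The number in a label was taken as the experiment. Deviations from the group means correlated at 0.701 to 0.933 within a number and at -0.674 to 0.009 between numbers. Such deviations cancel out within a group, which lowers the correlations between numbers. Tied values also make the arrays of experiments 2 and 3 alike. The contrast is thus partly built in and does not show that the number is the experiment. Limma 3.58.1 in R 4.3.3 (lmFit, eBayes with trend) used all 9 arrays with the experiment as a block (4 residual and 3.00 prior degrees of freedom). P-values were adjusted by Benjamini-Hochberg at 0.05, and 95% intervals come from the same fit. The number of arrays limits precision. The study describes 3 repeated experiments on this line. With the block, differences in level between these repeats are taken out. The p-values thus rest on how far the change varied between them, with the variance moderated over all probe sets. The script was checked on simulated data that held no tied values, so the check does not cover the ties of experiments 2 and 3. The members, lists and naming rule (called genes of each list, otherwise up to 2 by size) were chosen with earlier results of these data known. *Cxcl12*, *Vcam1*, *Il6st*, *Lifr*, *Kit*, *Socs3* and *Ephb4* were named after their values were seen. Alternatives covered the block, trend, probe sets, normalization, test and arrays.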

Additional observations from a re-analysis of the deposited data

Results flagged for a closer look

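The change of *Kitl* at 24 h differed from its change at 6 h by the limma test of the difference itself. The control cancels out in this difference, so it is the same comparison of 24 h with 6 h given above and not a further test. The difference was -0.44 ± 0.026 at 1415855_at (SE, adjusted p = 0.000875), -0.46 ± 0.084 at 1426152_a_at (adjusted p = 0.0482) and -0.50 ± 0.062 at 1448117_at (adjusted p = 0.0121), each lower in 3 of 3 experiments.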

How the results depend on the processing

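The change of *Kitl* at 24 h was negative at its 3 called probe sets under every alternative run, and at 1415855_at it lay between -0.44 and -0.38. The mean over all 4 *Kitl* probe sets gave -0.34. No call turned its direction. Counts of calls moved far more, and are given here over all probe sets and then over the 17 member probe sets. The replicate block, which pairs the arrays by experiment, decided them: without it 1 and 0 were called at 24 h against control and 0 and 0 at 24 h against 6 h. With only the 6 arrays compared and the block, 5 and 0 were called at 24 h against control and 8 and 0 at 24 h against 6 h. Without a variance trend the counts were 522 and 1 at 24 h and 354 at 24 h against 6 h. Among the 40% of highest mean they were 1914 and 1384 for all probe sets. The methods' t-test at its unadjusted threshold called 351 and 0 at 24 h, 53 at 6 h, and 299 and 1 at 24 h against 6 h, and after Benjamini-Hochberg adjustment 0 and 0 in both comparisons with the 24 h arrays. The ratio of 1.5 in each experiment was met by 59 and 0 at 24 h and by 52 and 0 at 24 h against 6 h. An alternative added after the data were seen, which left out probe sets with equal values at 24 h and in control (16676 stayed, 9 of them of members), gave 2051 calls, 4 of them of members, and there *Csf1* 1425154_a_at had adjusted p = 0.0455. When an experiment or an array was left out, calls ranged from 0 to 1439 of all probe sets and from 0 to 3 of the members at 24 h, from 0 to 38 at 6 h, and from 0 to 1498 and from 0 to 3 at 24 h against 6 h. The lowest counts over all probe sets came without experiment 1. In these 12 fits *Kitl* 1415855_at passed in all but those without experiment 1 or 2, with adjusted p from 0.00181 to 0.147, while 1426152_a_at and 1448117_at each failed in 9. With each array centred on its median, 1426152_a_at had adjusted p = 0.0561. A fit without 1 array assumes that the remaining ones of its group vary like the others. Dim signals with tied values limit what *Tnfsf11*, *Il6*, *Il11* and *Il33* can show.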
